A study of Mus musculus with 10 samples.

Results

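The genes described here are 10 immune checkpoint receptors and ligands, *Pdcd1*, *Cd274*, *Pdcd1lg2*, *Ctla4*, *Lag3*, *Havcr2*, *Tigit*, *Cd80*, *Cd86* and *Vsir*, chosen by symbol out of 55401 gene rows. All 10 had 1 row each and all 10 passed the filter on low counts. They were read in bulk RNA-seq of 10 day 15 tumors of B16F10, a mouse melanoma cell line, grown in C57BL/6J mice. Of these, 5 came from cells in which *Mir25*, the gene of miR-25, was knocked out with CRISPR-Cas9 (KO), and 5 from cells given a non-targeting control guide (NTC). Every mouse, KO and NTC alike, received the combination treatment Comb. Comb joins GVAX, irradiated B16 cells that secrete GM-CSF, given as 1000000 cells on days 1 and 4, with αPD-1, an antibody that blocks PD-1, given at 10 mg/kg on days 6, 9 and 12. No untreated tumor was compared, so these values describe checkpoint transcripts under PD-1 blockade and not the response to it. The methods describe several guides and stable populations of edited cells, and the guide behind these tumors was not given in the sources used here. No library held a read on the *Mir25* hairpin, so the deletion itself could not be read in these data.

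Inhibitory checkpoint receptors sit mainly on T cells and restrain them after activation. PD-1 binds PD-L1 and PD-L2, which tumor cells, macrophages and dendritic cells can display, and interferon-γ induces PD-L1. CTLA-4 competes with the costimulatory receptor CD28 for CD80 and CD86 on antigen-presenting cells. LAG-3, TIGIT and TIM-3 join PD-1 on T cells that have met antigen for long, while TIM-3 and VISTA are also made by myeloid cells. In a bulk tumor, fewer cells of a type and less RNA per cell cannot be told apart.

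The sequence of miR-25-3p, read from RefSeq on GRCm38.p6 at chr5:138165332-138165353 on the minus strand, is shown because its gene was the one targeted in the KO cells, and its capitals mark the seed, bases 2 to 8, which pairs with target RNAs.
mmu-miR-25-3p: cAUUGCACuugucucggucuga
The longest annotated 3′ UTR of each of the 10 genes was searched for the site GTGCAAT, complementary to the seed, and for TGCAATA, a shorter match followed by an A, on the transcript strand. The forms overlap where the first is followed by an A. None of the 10 held either site, in 3′ UTRs of 81 bases (*Lag3*) to 3745 bases (*Vsir*). For reference, 14.4% of 12911 tested genes with a 3′ UTR held at least 1, and *Sdc3*, the target the study followed, held 1 match in 3510 bases. No match says only that these letters are not in these windows.

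*Cd274* (PD-L1) and *Pdcd1lg2* (PD-L2) are neighbors on chromosome 19 (GRCm38), at chr19:29367455-29388095 and chr19:29410919-29471161, both on the plus strand. Their RefSeq promoters, 250 bases before the start site and the first 50 transcribed bases in capitals, are shown because both ligands of PD-1 start from this one stretch of chromosome and their levels differed between tumors in different degrees. They lie at chr19:29367188-29367487 and chr19:29410669-29410968.
Cd274: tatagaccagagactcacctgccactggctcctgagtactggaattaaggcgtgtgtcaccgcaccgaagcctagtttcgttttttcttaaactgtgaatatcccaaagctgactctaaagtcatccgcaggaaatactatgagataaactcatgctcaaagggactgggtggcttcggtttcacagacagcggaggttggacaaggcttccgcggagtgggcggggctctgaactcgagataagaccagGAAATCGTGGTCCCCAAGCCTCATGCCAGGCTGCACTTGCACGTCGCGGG
Pdcd1lg2: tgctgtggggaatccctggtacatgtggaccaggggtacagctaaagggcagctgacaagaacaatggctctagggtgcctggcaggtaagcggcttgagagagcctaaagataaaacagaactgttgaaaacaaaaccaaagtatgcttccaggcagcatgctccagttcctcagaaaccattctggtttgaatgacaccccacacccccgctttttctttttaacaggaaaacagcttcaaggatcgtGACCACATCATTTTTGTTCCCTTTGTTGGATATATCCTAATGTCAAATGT
Of the 10 genes, 8 had a promoter in the RefSeq table, and *Cd86* and *Lag3* are named only. The windows were searched on both strands for the interferon-γ activated site TTCNNNGAA, the interferon regulatory factor motif (GAAA, any 2 bases and GAAA) and the NFAT core TGGAAA. The only match was an NFAT core in *Ctla4*, 144 bases before the start site. Over all 32851 promoters of this length, 8.3% held the first motif, 3.44% the second and 21.4% the third.

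In KO tumors the mean level of all 10 genes was above that in NTC tumors, but no gene passed the threshold of edgeR's quasi-likelihood test, an absolute log2 fold change above 1 with an adjusted p under 0.05. *Pdcd1lg2* stood nearest to it, with a mean of 28.6 ± 17.2 (SD, n = 5) CPM in KO and 8.91 ± 2.53 (SD, n = 5) CPM in NTC tumors, a log2 fold change of 1.70 ± 0.40 (SE) and an adjusted p of 0.215. Over all 15821 genes tested, 1 was called higher and 2 lower, 0.0190% in either direction, so the 0 of 10 does not set these genes apart from the rest. At an unadjusted p under 0.05, *Pdcd1lg2*, *Lag3* and *Tigit* were higher in KO, 3 of 10, against 3.99% of all genes higher and 4.85% lower. DESeq2 called 1 of the 10, *Pdcd1lg2*, at a log2 fold change of 1.69 and an adjusted p of 0.00444, where it called 0.607% of all genes. With limma-voom, 0 of the 10 and 0.0442% of all genes were called. The log2 fold change was above 0 in 10 of 10 genes, against 51.3% of all genes, with a median of 1.00 against 0.01. The 10 genes moved together from tumor to tumor, so their directions are not 10 separate observations.

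One library stood apart. NTC replicate 1 had 11896643 reads on genes against 23243707 to 28682130 in the other 9, 33193 genes with a count against 22192 to 25435, and 42.9% of the reads in its file outside genes against 17.5% to 28.2%. Log2 fold changes of the 10 genes between the groups, and medians of the other lists, are therefore given with and without it. Without it, 7 of 10 genes were higher in KO at an unadjusted p under 0.05, against 12.0% of 16078 genes higher and 8.10% lower, and all 10 were above 0, against 48.1%, with a median log2 fold change of 1.53. Still none was called, the smallest adjusted p being 0.12 for *Pdcd1lg2*. In that comparison 2 genes of all tested were called higher and 15 lower, 0.106% in either direction. Leaving out other tumors moved the values either way. Without KO replicate 5 the median was 0.61 and 1 of 10 was higher at an unadjusted p under 0.05, against 469 of 16137 genes. The number was also 1 without KO replicate 2 (424 of 16029 genes) and without NTC replicate 2 (476 of 16083), 3 (482 of 16056) or 4 (424 of 16206). It was 2 without KO replicate 1 (502 of 16079) and 5 without KO replicate 4 (908 of 16185). It was 4 without KO replicate 3 (656 of 16017) or without NTC replicate 5 (595 of 16023). KO replicates 3 and 4, the low KO tumors in all 10 genes, had the highest sums of skeletal muscle markers (32.6 and 166 CPM, others at most 4.25) and of keratinocyte markers (19.3 and 5.26 CPM, others at most 2.69). The median was 1.21 without KO replicate 3 and 1.24 without KO replicate 4, and what part this other tissue has in the values was not tested. The labels call the tumors biological replicates without saying that each came from a separate mouse, so the p-values measure the spread between these samples.

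**Figure D1:**
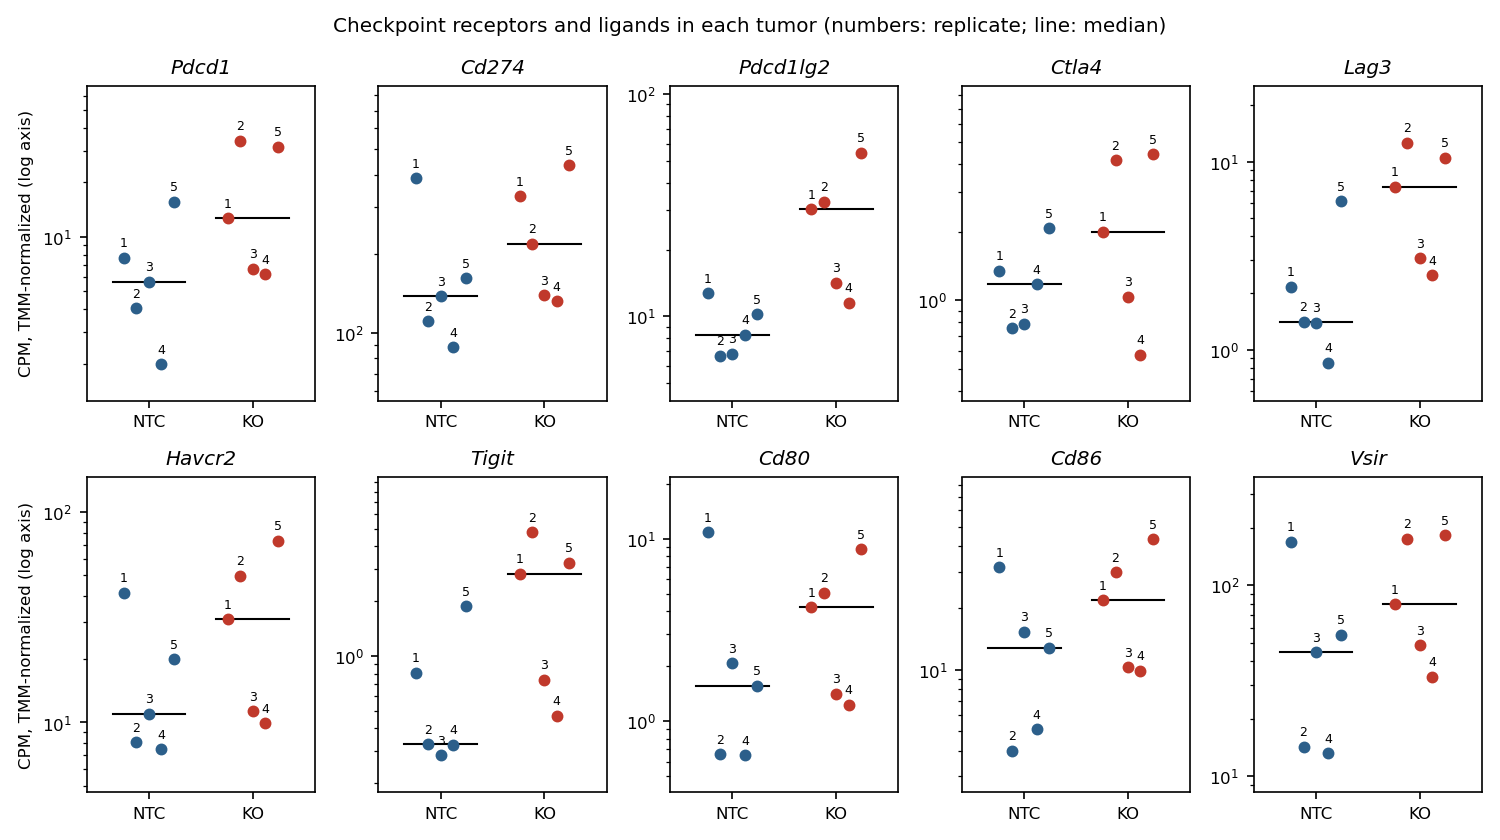
Level of the 10 genes in each tumor in CPM (reads scaled to the library size, with TMM factors), on a log axis with a range of its own for each gene, with NTC tumors in blue, KO tumors in red, replicate numbers beside the points and the group median as a line. KO replicates 1, 2 and 5 lie above KO replicates 3 and 4 in every panel, and NTC replicate 1 lies among the high tumors for *Cd80*, *Cd86*, *Vsir*, *Havcr2* and *Cd274*.

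The first axis is PD-1 with its ligands. *Pdcd1* encodes PD-1, the target of the antibody all mice received, and lies at chr1:94038305-94052553 on the minus strand. Its level was 12.7, 34.1, 6.67, 6.24 and 31.5 CPM in KO replicates 1 to 5, on 173 to 897 reads. In NTC replicates 1 to 5 it was 7.68, 4.04, 5.65, 1.99 and 15.7 CPM, on 49 to 452 reads. KO replicates 2 and 5 exceeded every NTC tumor, KO replicates 3 and 4 lay below NTC replicates 1 and 5, and the groups overlapped. The log2 fold change of *Pdcd1* was 1.38 ± 0.63 (SE), with an unadjusted p of 0.053 and an adjusted p of 0.572 in edgeR, and 1.37 without NTC replicate 1.

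*Cd274*, encoding PD-L1, was the most abundant of the 10 per kilobase of exon. It reached 331, 218, 139, 132 and 434 CPM in KO replicates 1 to 5. Among the controls, NTC replicates 1 to 5, it reached 387, 111, 138, 88.2 and 161 CPM. NTC replicate 1 was exceeded only by KO replicate 5, and KO replicates 3 and 4 sat within the range of the other NTC tumors. Its log2 fold change was 0.51 ± 0.45 (SE) with an edgeR adjusted p of 0.771, and 0.97 ± 0.35 (SE) with an adjusted p of 0.197 without NTC replicate 1. Without KO replicate 5, the highest tumor, it was 0.22, with an adjusted p of 0.985. The exons of *Cd274* share 511 bases with another annotated gene on the opposite strand, and the strand setting of the counting was not given in the sources used here, so reads there cannot be told apart.

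*Pdcd1lg2*, encoding PD-L2, which dendritic cells and macrophages mainly make, had the smallest p of the 10. Its level was 30.3, 32.8, 14.2, 11.5 and 54.5 CPM in KO replicates 1 to 5, on 318 to 1225 reads. In NTC replicates 1 to 5 it was 12.7, 6.66, 6.78, 8.26 and 10.2 CPM, on 94 to 293 reads. The groups overlapped by a single pair of tumors, KO replicate 4 and NTC replicate 1. Without NTC replicate 1 all 5 KO tumors lay above all 4 NTC tumors, as 2.50% of all genes did in that direction, and *Pdcd1lg2* was the only one of the 10 to do so. With all tumors 0.866% of genes lay wholly higher in KO. Its log2 fold change was 1.80 without NTC replicate 1 and ranged from 1.33 to 1.90 when each tumor was left out in turn, with adjusted p-values of 0.12 to 0.474.

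The ligands of PD-1 did not keep one ratio across tumors. KO replicates 1 to 5 held 10.9, 6.67, 9.74, 11.5 and 7.97 reads on *Cd274* for each read on *Pdcd1lg2*. NTC replicates 1 to 5 held 30.5, 16.7, 20.3, 10.7 and 15.8. The medians were 9.74 in KO and 16.7 in NTC tumors, and only NTC replicate 4 lay within the KO range. These pairs were formed after the values were seen, so the ratios are a description without a test. By comparison *Cd86* reads per *Cd80* read had medians of 5.93 in KO and 7.33 in NTC tumors, and *Pdcd1* reads per *Lag3* read medians of 2.51 and 2.86, both with wide overlap.

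**Figure D2:**
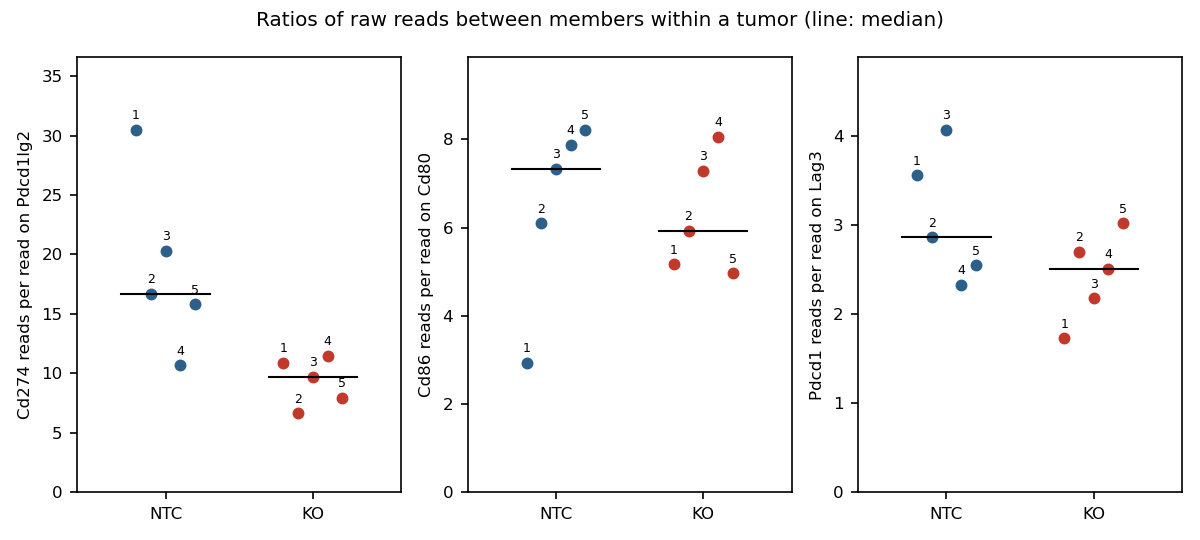
Raw reads on 1 gene per read on another within each tumor, on linear axes that start at 0, for *Cd274* per *Pdcd1lg2*, *Cd86* per *Cd80* and *Pdcd1* per *Lag3*, with NTC in blue, KO in red, replicate numbers beside the points and the median as a line. The *Cd274* to *Pdcd1lg2* ratio is 6.67 to 11.5 in KO and 10.7 to 30.5 in NTC tumors, with NTC replicate 1 highest, while the other ratios overlap broadly.

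The second axis is CTLA-4 with its ligands. *Ctla4*, at chr1:60887000-60915832 on the plus strand, encodes the receptor that regulatory and activated T cells use to bind CD80 and CD86. It reached 2.01, 4.14, 1.04, 0.577 and 4.40 CPM in KO replicates 1 to 5. The 5 NTC tumors, in the same order, reached 1.35, 0.755, 0.789, 1.18 and 2.08 CPM. The lowest and the highest tumors were both KO tumors, replicates 4 and 5. The fitted difference on the log2 scale was 0.99 ± 0.56 (SE) with an edgeR adjusted p of 0.643, on no more than 109 reads in any tumor, and 0.97 without NTC replicate 1. It was 0.66 without KO replicate 5.

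*Cd80*, which binds CTLA-4 more tightly than CD28, was the gene that depended most on NTC replicate 1. In KO replicates 1 to 5 it was 4.22, 5.05, 1.41, 1.23 and 8.76 CPM. NTC replicate 1 was the highest of all tumors at 10.8 CPM on 80 reads, and NTC replicates 2 to 5 were at 0.657, 2.08, 0.651 and 1.56 CPM on 16 to 66 reads. Over all tumors the log2 fold change was 0.47 ± 0.84 (SE) with an edgeR adjusted p of 0.887 and 1.69 ± 0.63 (SE) with an adjusted p of 0.202 without that library. Without KO replicate 5 it was 0.00.

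*Cd86*, the ligand that resting antigen-presenting cells already carry, gave 21.9, 30, 10.3, 9.88 and 43.5 CPM in KO replicates 1 to 5. NTC replicates 1 to 5 gave 31.7, 4.01, 15.3, 5.12 and 12.8 CPM. NTC replicates 1, 3 and 5 lay above KO replicates 3 and 4, and the groups overlapped. Between the groups the log2 fold change was 0.77 ± 0.59 (SE) with an edgeR adjusted p of 0.735, and 1.27 with an adjusted p of 0.228 without NTC replicate 1. It was 0.41, with an adjusted p of 0.976, without KO replicate 5. The 3 genes of this axis therefore held no call in either set of tumors.

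Of the remaining receptors, *Havcr2* and *Vsir* were high in NTC replicate 1 and *Lag3* and *Tigit* were not. *Lag3*, at chr6:124904361-124911705, encodes a receptor that resembles CD4 and binds MHC class II. It reached 7.34, 12.6, 3.07, 2.49 and 10.5 CPM in KO replicates 1 to 5. The NTC tumors, replicates 1 to 5, reached 2.16, 1.41, 1.39, 0.854 and 6.14 CPM. All 5 KO tumors lay above NTC replicates 1 to 4, and NTC replicate 5 lay above KO replicates 3 and 4. For *Lag3* the log2 fold change was 1.58 ± 0.62 (SE), with an unadjusted p of 0.0279 and an edgeR adjusted p of 0.493, and 1.51 without NTC replicate 1. It ran from 1.28 without KO replicate 2, where the unadjusted p was 0.0739, to 2.34 without NTC replicate 5.

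*Tigit*, which encodes a receptor for the poliovirus receptor on tumor and antigen-presenting cells, was read at 2.83, 4.79, 0.741, 0.469 and 3.25 CPM in KO replicates 1 to 5. In NTC replicates 1 to 5 it was at 0.808, 0.328, 0.284, 0.325 and 1.87 CPM. These values rest on 13 to 126 reads in KO and 6 to 54 reads in NTC tumors, and no other of the 10 genes had as few as 6 reads in a tumor. KO replicates 1, 2 and 5 exceeded every NTC tumor and KO replicates 3 and 4 did not. The log2 fold change of 1.74 ± 0.75 (SE) was the largest of the 10, with an unadjusted p of 0.0416 and an edgeR adjusted p of 0.531, and was 1.73 without NTC replicate 1. It ran from 1.33 without KO replicate 2, where the unadjusted p was 0.113, to 2.58 without NTC replicate 5.

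*Havcr2* encodes TIM-3, carried by exhausted T cells and by macrophages and dendritic cells. It reached 30.9, 49.8, 11.3, 9.91 and 73.1 CPM in KO replicates 1 to 5. The NTC tumors, in order, reached 41.4, 8.08, 11, 7.44 and 20 CPM. Only KO replicates 2 and 5 lay above NTC replicate 1. For *Havcr2* the log2 fold change was 1.01 ± 0.65 (SE) with an edgeR adjusted p of 0.68, and 1.54 with an adjusted p of 0.208 without NTC replicate 1. Without KO replicate 5 it was 0.56, with an adjusted p of 0.971.

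*Vsir* encodes VISTA, a receptor found mainly on myeloid cells, and lies within the locus of *Cdh23*, on the other strand, without sharing exonic bases. It reached 79.4, 175, 48.7, 33.2 and 183 CPM in KO replicates 1 to 5. In NTC replicates 1 to 5 it reached 169, 14.3, 44.6, 13.2 and 55.2 CPM. The spread within the NTC group, from 13.2 to 169 CPM, was wider than the distance between the group means of 104 and 59.3 CPM. For *Vsir* the log2 fold change was 0.82 ± 0.73 (SE) with an edgeR adjusted p of 0.767, and 1.66 with an adjusted p of 0.199 without NTC replicate 1. It was 0.52, with an adjusted p of 0.977, without KO replicate 5, and 0.55 without KO replicate 2.

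Compared per length of annotated exon, in CPM per kilobase, the median levels over the 10 tumors ran from *Cd274* (41.4) through *Vsir* (10.4), *Pdcd1lg2* (6.17), *Havcr2* (5.75), *Cd86* (3.84), *Pdcd1* (3.72), *Lag3* (1.32), *Tigit* (0.843) and *Ctla4* (0.543) to *Cd80* (0.491). *Cd274* exceeded *Vsir*, *Pdcd1* exceeded *Lag3* and *Lag3* exceeded *Tigit* in 10 of 10 tumors. *Havcr2* exceeded *Cd86* in 9 of 10 tumors, and *Vsir* exceeded *Pdcd1lg2*, as *Tigit* did *Ctla4*, in 8 of 10. The order was not settled within tumors for *Pdcd1lg2* over *Havcr2* (6 of 10), *Cd86* over *Pdcd1* (3 of 10) and *Ctla4* over *Cd80* (5 of 10). Exon lengths came from GENCODE M21, which may not be the annotation used for the counting.

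All 10 genes varied widely between tumors of 1 group. The SD of log2 CPM within groups ran from 0.71 for *Pdcd1lg2* to 1.41 for *Cd80*, the 78.9th to the 96.0th percentile of all genes tested. The tumors kept nearly one order across the genes. KO replicate 5 was at rank 1 or 2 for all 10 genes, and KO replicate 2 was in the top 3 for 9 of them. NTC replicate 2 was in the bottom 3 for all 10 and NTC replicate 4 for 9. NTC replicate 1 was at rank 1 for *Cd80*, at rank 2 for *Cd274* and *Cd86* and rank 3 for *Havcr2* and *Vsir*, but at rank 5 for *Pdcd1*, *Pdcd1lg2*, *Ctla4* and *Tigit* and rank 7 for *Lag3*. NTC replicate 5 was at rank 3 for *Pdcd1* and *Ctla4* and rank 7 for *Pdcd1lg2*.

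Across the 10 tumors, the 10 genes differed in how alike their patterns were. Pearson's r of log2 CPM was 0.97 between *Lag3* and *Tigit*, 0.96 between *Pdcd1* and *Lag3* and 0.92 between *Pdcd1* and *Tigit* and between *Ctla4* and *Tigit*. It was 0.98 between *Cd86* and *Vsir*, 0.97 between *Cd80* and *Cd86* and 0.95 between *Cd274* and *Cd80*. It was 0.91 between *Cd274* and *Cd86* and 0.89 between *Cd274* and *Vsir*. No sharp division followed, with 0.84 for *Ctla4* to *Pdcd1* and to *Lag3* but 0.85 between *Pdcd1* and *Vsir*, and the least, 0.62, lay between *Lag3* and *Cd80*. *Havcr2* had 0.93 to 0.94 to *Cd274*, *Cd80*, *Cd86* and *Vsir* and 0.81 to *Lag3*. *Pdcd1lg2* had 0.88 to *Tigit* and 0.87 to *Lag3* against 0.72 to *Cd80* and 0.77 to *Cd274*. The points share library depth and cell content, so these values describe the tumors and carry no test.

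**Figure D3:**
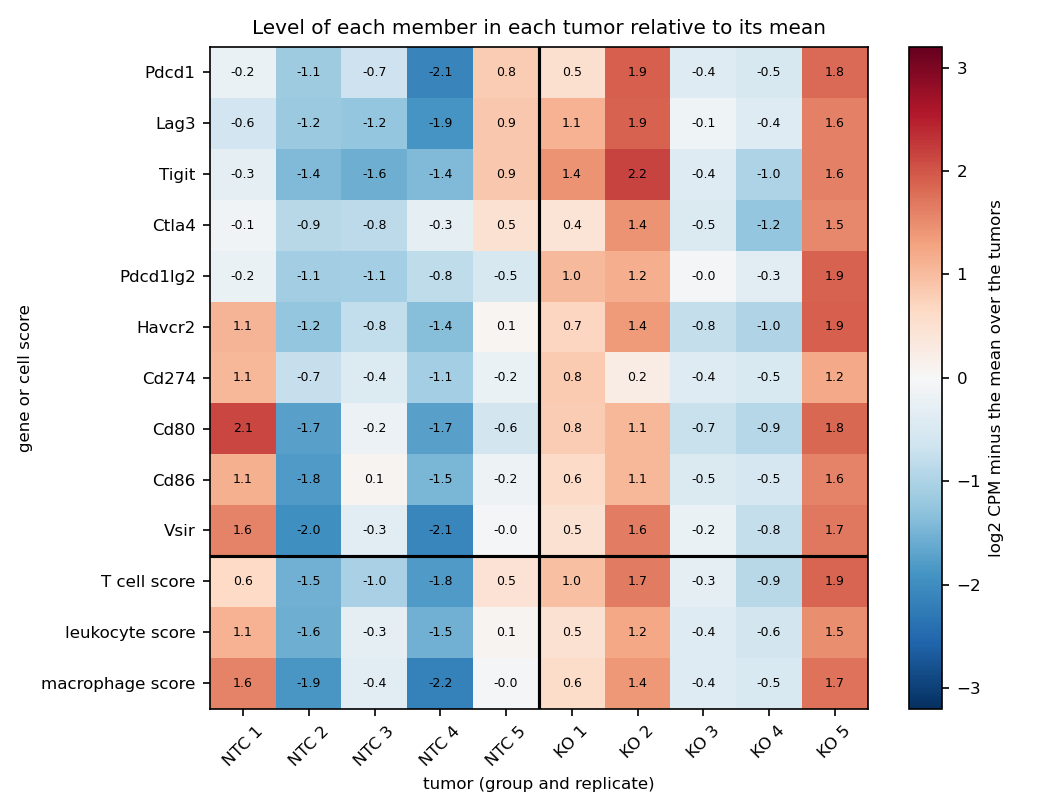
Level of each gene in each tumor as log2 CPM minus the mean over the 10 tumors, with red above and blue below the mean, NTC tumors left and KO tumors right of the line, and below it the T cell, leukocyte and macrophage scores on the same scale. KO replicates 2 and 5 are red in every row, NTC replicates 2 and 4 blue in every row, and NTC replicate 1 is red for *Havcr2*, *Cd274*, *Cd80*, *Cd86*, *Vsir* and the scores but pale blue for the other genes.

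The genes outside the 10 whose pattern was most like each of them, by the highest Pearson's r of log2 CPM over the 10 tumors, were as follows. For *Pdcd1* they were *Batf3* (0.991), a transcription factor of cross-presenting dendritic cells and activated T cells, and *Pitpnm1* (0.977). For *Lag3* they were *Jade2* (0.987), *Myo1c* (0.968) and *Batf3* (0.961), and for *Tigit* *Sh3bp1* (0.962), *Myo1c* (0.958) and *Bahd1* (0.953). For *Ctla4* they were *Max* (0.963), *Chst14* (0.955) and *Tmem127* (0.953), and for *Pdcd1lg2* *Agap3* (0.981), *Rbl2* (0.976) and *Dusp7* (0.975).

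For *Vsir* the nearest were *Marchf1* (0.998), a ubiquitin ligase of antigen-presenting cells that targets MHC class II and CD86, *Gm21188* (0.998) and *Abcg3* (0.997). *Cd86* lay nearest to *Atp8b4* (0.992), *Cytip* (0.992), a leukocyte adaptor, and *H2-Q5* (0.991). *Cd80* lay nearest to *B3gnt5* (0.993), *St8sia4* (0.992) and *Apobr* (0.991), and *Cd274* to *Ms4a4a* (0.983), a macrophage surface protein, *Cercam* (0.980) and *Igdcc4* (0.979). *Havcr2* lay nearest to *Hgf* (0.996), *Samhd1* (0.991), a myeloid restriction factor, and *Slamf7* (0.991), a receptor of leukocytes. Being the highest of all genes, these r values are a choice after the fact.

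T cell and macrophage markers were higher on average in KO tumors too, without a call. The T cell markers, *Cd3d*, *Cd3e*, *Cd3g*, *Cd247*, *Trac*, *Cd4*, *Cd8a*, *Cd8b1*, *Cd5* and *Cd6*, had log2 fold changes above 0 in 10 of 10 genes, with a median of 1.11. They summed to 32.9 to 200 CPM in KO and 19.6 to 91.2 CPM in NTC tumors, and 91.2 was the value of NTC replicate 1. The 10 macrophage and monocyte markers had log2 fold changes above 0 in 9 of 10 genes, with a median of 0.88. They summed to 1490 to 7820 CPM in KO and 452 to 6640 CPM in NTC tumors, 6640 again in NTC replicate 1. No marker of either list was at 0 in all tumors, and none was called. At an unadjusted p under 0.05, 1 T cell marker, *Cd3g*, and no macrophage marker was higher, against 3.99% of all genes. Without NTC replicate 1 these numbers were 4 and 9, against 12.0% of all genes, with medians of 1.40 and 1.62.

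The fit was therefore repeated with a measure of immune content as a covariate, and the differences depended on the score. With the T cell score, the mean log2 CPM of *Cd3d*, *Cd3e* and *Cd3g*, 4 of 10 log2 fold changes stayed above 0 and the median was -0.27, against 48.0% of all genes above 0, and 0.0379% of all genes were called. With the leukocyte score, the mean log2 CPM of 10 leukocyte genes such as *Ptprc*, 6 of 10 stayed above 0 and the median was 0.01, against 51.7% of all genes above 0, and 0.0569% were called. *Pdcd1lg2* kept a log2 fold change of 0.80 ± 0.26 (SE) with an unadjusted p of 0.0116 under the T cell score, and 1.02 ± 0.28 (SE) with 0.00392 under the leukocyte score. It was the only one of the 10 under 0.05 before adjustment in either fit, where 5.02% and 6.46% of all genes were higher, and the edgeR adjusted p-values were 0.309 and 0.162. Without NTC replicate 1 its value under the T cell score was 0.71 ± 0.30 (SE), with an unadjusted edgeR p of 0.0397. Under the leukocyte score it was 0.78 ± 0.33 (SE), with 0.0358. Without that library 5 of 10 log2 fold changes were above 0 with either score, against 52.9% of all genes with the T cell and 53.5% with the leukocyte score. The medians of the 10 were then 0.01 and 0.00.

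With the T cell score in the fit, *Pdcd1* was at 0.07 ± 0.29 (SE), *Tigit* at 0.16 ± 0.41, *Lag3* at 0.40 ± 0.32 and *Ctla4* at -0.30 ± 0.44. Under the leukocyte score *Vsir* was at 0.02 ± 0.11 (SE), *Cd86* at -0.03 ± 0.15, *Cd274* at -0.03 ± 0.21, *Havcr2* at -0.04 ± 0.21 and *Cd80* at -0.37 ± 0.29. In that fit *Lag3* was at 0.63 ± 0.45 (SE), *Tigit* at 0.52 ± 0.57, *Pdcd1* at 0.28 ± 0.38 and *Ctla4* at 0.01 ± 0.55. Without NTC replicate 1 that score gave 0.11 ± 0.39 (SE) for *Lag3*, -0.04 ± 0.56 for *Tigit*, -0.24 ± 0.30 for *Pdcd1* and -0.53 ± 0.49 for *Ctla4*. Under the T cell score *Cd274* was at -0.25 ± 0.26 (SE), *Cd86* at -0.28 ± 0.33, *Vsir* at -0.35 ± 0.32, *Havcr2* at -0.38 ± 0.21 and *Cd80* at -0.86 ± 0.49, farther from 0 than its 0.47 without a score. Without NTC replicate 1 the T cell score gave 0.13 ± 0.26 (SE) for *Cd274*, 0.14 ± 0.30 for *Vsir* and 0.03 ± 0.49 for *Cd80*. It gave -0.01 ± 0.38 for *Cd86*, -0.19 ± 0.23 for *Havcr2* and 0.09 ± 0.26 for *Lag3*. The leukocyte score then gave 0.17 ± 0.26 for *Cd274*, 0.15 ± 0.13 for *Vsir* and 0.05 ± 0.34 for *Cd80*. With the leukocyte score in the fit of all 10 tumors, the SE of *Cd86* and *Vsir* fell from 0.59 to 0.15 and from 0.73 to 0.11, so that most of their spread between tumors ran with the leukocyte score. None of the 10 was called in these fits. The score is measured in the same libraries, and what part cell content has in each difference was not tested.

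**Figure D4:**
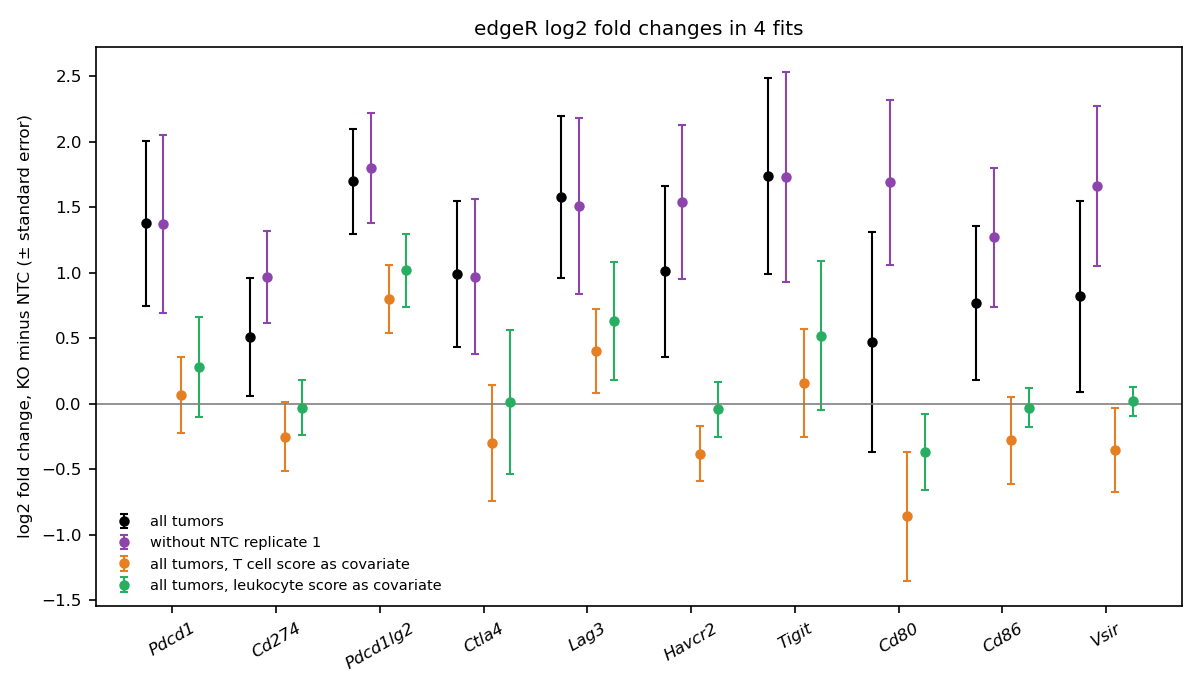
Log2 fold change of each gene, KO minus NTC, with its standard error, from edgeR over all 10 tumors (black), without NTC replicate 1 (purple), and over all tumors with the T cell score (orange) or the leukocyte score (green) as a covariate. All black and purple points lie above 0, most orange points lie below 0 and most green points near it, and *Pdcd1lg2* stays highest in both covariate fits at 0.80 and 1.02.

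Ratios of reads within a tumor need no normalization, and are given here as a description. Per 1000 reads on *Cd3d*, *Cd3e* and *Cd3g*, *Pdcd1* had 361, 567, 412, 553 and 449 reads in KO replicates 1 to 5 and 275, 554, 561, 320 and 597 in NTC replicates 1 to 5. The KO values lay wholly within the NTC range. *Lag3* had 149 to 220 reads (median 209) in KO and 77.3 to 234 (median 138) in NTC tumors, with NTC replicate 1 lowest. *Tigit* had 41.5 to 80.4 (median 46.2) in KO and 28.2 to 71.3 (median 45) in NTC tumors. Both overlapped.

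*Ctla4* per T cell read ran the other way. It had 57.1, 68.9, 64.4, 51.1 and 62.7 reads per 1000 in KO replicates 1 to 5 and 48.3, 104, 78.4, 190 and 79.3 in NTC replicates 1 to 5. NTC replicates 2 to 5 all lay above every KO tumor, and NTC replicate 1, with 10 reads on *Ctla4* and 207 on the *Cd3* genes, lay below them all. With *Trac* and *Cd247* in the denominator the groups overlapped also without NTC replicate 1, at 88.9 to 166 in KO tumors and 123 to 372 in NTC replicates 2 to 5. The 3 *Cd3* genes together had 153 reads in NTC replicate 4 and 1582 in KO replicate 2, so the ratios of the tumors with few *Cd3* reads are the least precise.

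Per 1000 reads on *Ptprc*, the leukocyte antigen CD45, *Vsir* was the steadiest gene, with 250 to 318 reads in KO and 233 to 349 in NTC tumors. *Cd86* had 52.7 to 88.0 in KO and 59.5 to 90.8 in NTC tumors. *Cd80* had 8.88 to 13.4 in KO and 7.24 to 22.2 in NTC tumors, 22.2 in NTC replicate 1. *Havcr2* had 73.4 to 111 in KO and 63.7 to 152 in NTC tumors, *Cd274* 384 to 1180 and 745 to 2090, and *Pdcd1lg2* 57.6 to 102 and 26.1 to 146. All 6 overlapped between the groups. For *Pdcd1lg2* the mean log2 difference, KO minus NTC, was 0.46 per *Ptprc* read (SD within groups 0.80) and 0.24 per *Cd3* read (SD 0.57), and 0.15 and 0.09 without NTC replicate 1. These differences are smaller than its SD between tumors and smaller than the 1.02 and 0.80 left with the scores as covariates.

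**Figure D5:**
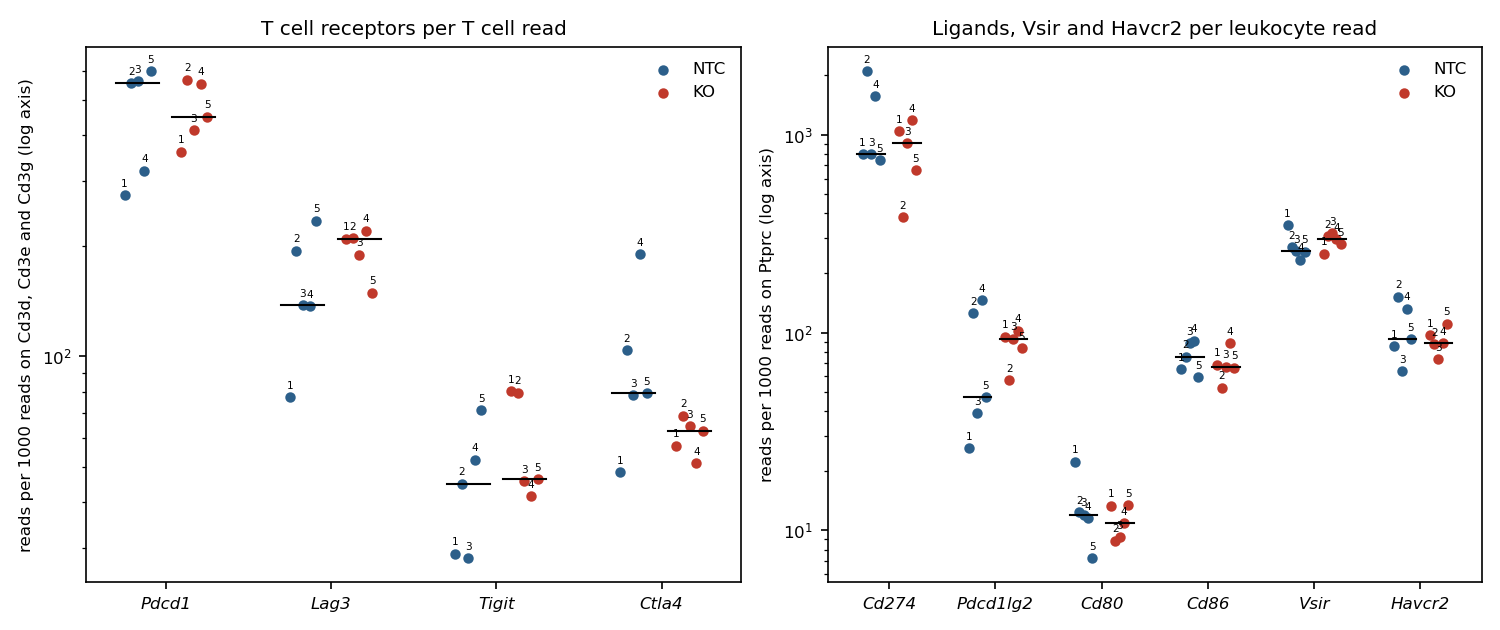
Raw reads on each receptor per 1000 reads on *Cd3d*, *Cd3e* and *Cd3g* (left) and on each ligand, *Vsir* and *Havcr2* per 1000 reads on *Ptprc* (right), on log axes, for NTC (blue) and KO (red) tumors with replicate numbers beside the points and the median as a line. All 10 genes overlap between the groups, and for *Ctla4* NTC replicates 2 to 5 lie above and NTC replicate 1 below the KO tumors.

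Other genes of checkpoint biology gave no call either. Of 20 further inhibitory receptors and ligands, 18 were tested, with a median log2 fold change of 0.46, and of 1.04 without NTC replicate 1, where 6 were higher and 2 lower at an unadjusted p under 0.05, against 12.0% and 8.10% of all genes. *Sirpa*, the myeloid receptor for CD47, was higher at an unadjusted p under 0.05, at 0.88 ± 0.39 (SE). *Pvr*, a ligand of TIGIT, and *Nectin3*, a related adhesion molecule, were lower at -0.51 ± 0.19 and -0.31 ± 0.13 (SE). *Pvr* had a mean of 34.4 ± 7.79 (SD, n = 5) CPM in KO and 49.1 ± 10.8 (SD, n = 5) CPM in NTC tumors, the other side of zero from its receptor, and its edgeR adjusted p was 0.438. Of 16 costimulatory genes 12 were tested, with a median of 0.85, and of 1.22 without NTC replicate 1, where 3 were higher and 1 lower, against the same shares of all genes. *Tnfrsf9* (4-1BB), a receptor of activated T cells, was the 1 gene lower at an unadjusted p under 0.05, at -0.83 ± 0.29 (SE, edgeR adjusted p = 0.42), with 21.6 ± 8.72 (SD, n = 5) CPM in KO and 38.7 ± 11.3 (SD, n = 5) CPM in NTC tumors. *Cd28*, the costimulatory partner of CD80 and CD86, was at 1.36 ± 0.72 (SE) with an unadjusted p of 0.0864.

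Regulators of T cell exhaustion and activation (13 of 14 tested) had a median log2 fold change of 0.50, and 10 genes of receptor signaling 0.73, with no gene under an unadjusted p of 0.05 in either list. The medians were 0.79 and 1.15 without NTC replicate 1, with 3 exhaustion and activation genes higher and 6 signaling genes higher and 1 lower at that limit. Of all genes in that comparison, 12.0% were higher and 8.10% lower. The 12 genes of the interferon-γ response, the pathway that induces *Cd274*, had log2 fold changes above 0 in 10 of 12 genes, against 51.3% of all genes. Their median was 0.20, and the difference from the 10 checkpoint genes was not tested. Without NTC replicate 1 their median was 0.31, with 2 genes higher at an unadjusted p under 0.05, against 12.0% of all genes. With all 10 tumors *Jak2* was at 0.46 ± 0.22 (SE) and *Cxcl10*, a chemokine gene that interferon-γ induces, at -0.39 ± 0.22, and neither passed. The summed level of all 12 genes was 2290 to 4920 CPM in KO and 2010 to 3800 CPM in NTC tumors.

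Dendritic cell markers had log2 fold changes above 0 in 8 of 8 genes, against 51.3% of all genes, with a median of 1.10. At an unadjusted p under 0.05, 3 were higher, against 3.99% of all genes. These were *Ccr7*, the homing receptor of migratory dendritic cells, at 1.96 ± 0.52 (SE), *Clec9a*, a receptor of cross-presenting dendritic cells, at 1.89 ± 0.62, and *Itgax* (CD11c) at 1.11 ± 0.38. None was called, their edgeR adjusted p-values being 0.247, 0.379 and 0.405. The summed dendritic cell markers were 50.8 to 126 CPM in KO and 23.7 to 73.5 CPM in NTC tumors, and 59.8 CPM in NTC replicate 1, which was not the highest NTC tumor as it was for macrophage markers. Without that library the median was 1.28, with 4 of 8 higher at an unadjusted p under 0.05, against 12.0% of all genes. What part these cells have in the level of any of the 10 genes was not tested.

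The remaining marker lists had medians of 0.61 (regulatory T cells, 3 of 5 tested), 0.23 (NK cells, 4 of 5), -0.02 (B cells, 2 of 5), -0.04 (neutrophils, 4 of 5), 0.58 (fibroblasts, 6 of 6), 0.21 (endothelium, 5 of 5), -0.05 (melanoma cells, 7 of 7) and 0.79 (leukocytes, 10 of 10). Without NTC replicate 1 they were 1.23 (regulatory T cells, 4 tested), 0.69 (NK cells), 0.74 (B cells), 2.46 (neutrophils), 1.62 (fibroblasts), 0.58 (endothelium), -0.22 (melanoma cells) and 1.38 (leukocytes). Melanoma markers summed to 11800 to 19300 CPM in KO and 11300 to 21300 CPM in NTC tumors, so the defining markers of the labelled line were present, and NTC replicate 1 had the lowest of these sums. Of the 6 skeletal muscle markers 1 was tested, at a log2 fold change of 2.53, and 3 without NTC replicate 1, with a median of 4.59. No keratinocyte marker passed the filter in either set of tumors.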

How the data were processed

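The submitters' processing notes name FastQC, Trimmomatic, HISAT2, HTSeq and mm10. The authors deposited whole-number counts of reads per gene, without normalization, for 5 KO and 5 NTC tumors, and the gene annotation and strand setting are not given in the sources used here. Groups and replicate numbers came from the sample labels. Rows for reads outside genes were left out of library sizes (17.5% to 42.9% of the reads in a file). Reads on genes ran from 11896643 to 28682130 per tumor. The reads carried no molecular identifiers, so the error of each mean is the spread between tumors.

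Counts were tested with edgeR 4.0.16 (R 4.3.3) by its quasi-likelihood test, with TMM factors and edgeR's filter on low counts, and p-values were adjusted by the Benjamini-Hochberg method over all genes tested. A gene was called at an absolute log2 fold change above 1 and an adjusted p under 0.05. CPM values are TMM-normalized, log2 CPM used a prior count of 2, and the standard error of a log2 fold change is its size over the square root of F. Alternatives were DESeq2 1.42.0, limma-voom (limma 3.58.1), RLE factors, other filters and thresholds, robust dispersions, the replicate number as a block, T cell and leukocyte scores as covariates, and each tumor left out in turn. The fits with the macrophage score and with a score but without NTC replicate 1 were chosen after seeing the data.

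The 10 genes and the other lists were chosen with earlier results of these data known. The 10 are given in full, other lists by counts, median and at most 3 genes of lowest p, and the 3 genes most like each member by Pearson's r over 10 tumors, of which 1 gene is not reported here. In data simulated for KO against NTC with the spread of the tumors over 15561 genes, edgeR recovered 93 of 100 genes changed by a log2 fold of 2 and 99 of 100 changed by 4, with 3 unchanged genes called. The largest log2 fold change fitted for the 10 genes was 1.74, below both simulated folds. Recovery at the fold changes and spread of these 10 genes was not simulated. Positions and 3′ UTRs came from GENCODE M21 (GRCm38), and promoters and miR-25 from RefSeq (GRCm38.p6). Tables and figures used Python 3.11.15, pandas 2.3.3 and matplotlib 3.10.9.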

Additional observations from a re-analysis of the deposited data

Results flagged for a closer look

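Of 72 comparisons of 5 tumors within a group, 3 had a lowest or highest tumor far from the others by Dixon's test, and chance gives about 1 in 20. NTC replicate 1 had 11896643 reads on genes, against 24145795 to 28682130 in the other NTC tumors. It also had 33193 genes with a count, against 22192 to 23831. NTC replicate 5 had 6120 reads on *Cd274* per 1000 reads on *Cd3d*, *Cd3e* and *Cd3g*, where NTC replicates 1 to 4 had 13700 to 15300 and KO tumors 3640 to 11700.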

How the results depend on the processing

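The counts of called genes, 1 higher and 2 lower, were 24 and 72 with DESeq2, 0 and 7 with limma-voom, 0 and 6 with at least 10 counts in every tumor, 1 and 4 with no fold threshold or robust dispersions, 3 and 3 with the T cell score, 4 and 5 with the leukocyte score and 4 and 6 with the macrophage score. Without NTC replicate 1 they were 4 and 5 with the T cell score and 4 and 6 with the leukocyte score. Leaving out each tumor in turn gave 1 to 2 higher and 0 to 15 lower, the 2 and 15 without NTC replicate 1. Of the 10 genes, DESeq2 called 1, *Pdcd1lg2*, at 1.69, and every other setting 0 of those tested, which were 9 with at least 10 counts in every tumor. With the T cell score as a covariate the log2 fold change fell below 0 for *Cd274* (-0.25), *Ctla4* (-0.30), *Havcr2* (-0.38), *Cd80* (-0.86), *Cd86* (-0.28) and *Vsir* (-0.35). With the leukocyte score it did for *Cd274* (-0.03), *Havcr2* (-0.04), *Cd80* (-0.37) and *Cd86* (-0.03), and with the macrophage score for *Cd274* (-0.04), *Havcr2* (-0.02), *Cd80* (-0.36) and *Cd86* (-0.05), with *Vsir* at 0.00. Without NTC replicate 1, the T cell score gave -0.22 for *Pdcd1*, -0.63 for *Ctla4*, -0.19 for *Havcr2*, -0.15 for *Tigit* and -0.01 for *Cd86*, and the leukocyte score -0.24 for *Pdcd1*, -0.53 for *Ctla4*, -0.14 for *Havcr2*, -0.04 for *Tigit* and -0.04 for *Cd86*. The cause was not tested. The other 203 refitted log2 fold changes of the 10 genes and all 30 ratios kept their direction or moved by less than the spread between tumors. Whether the replicate numbers pair the tumors was not settled. Same-numbered tumors correlated at 0.17, -0.29, 0.08, 0.63 and 0.21. KO replicates 1 and 4 matched the NTC tumor of the same number best, and KO replicates 2, 3 and 5 another one. With the replicate block 1 gene was called higher and 0 lower, by edgeR, with 799 and 829 at an unadjusted p under 0.05. Of the 10 genes 4 were higher at that limit and 0 were called. The SE of each of the 10 was smaller with the block, for *Lag3* 0.37 against 0.62. Depth limits *Tigit*, *Ctla4*, *Cd80* and *Lag3*, with 6, 10, 16 and 16 reads in their lowest tumors.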
